A study of Mus musculus with 2 samples.

Results

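Secreted Wnt antagonists were followed through the stromal cells of grafted mouse intestine. The 9 genes were taken by symbol from the 28692 features of each count matrix: Sfrp1, Sfrp2, Sfrp4, Sfrp5, Frzb, Wif1, Dkk1, Dkk2 and Dkk3, each matched by 1 feature. Wnt proteins bind Frizzled receptors and the co-receptors Lrp5 and Lrp6, and the response keeps epithelial stem cells of the gut crypt dividing. Secreted frizzled-related proteins (the Sfrp genes and Frzb) and Wif1 bind Wnt proteins outside the cell, whereas Dkk1 and Dkk2 bind Lrp5 and Lrp6, and Dkk3 is a divergent family member without settled Lrp binding. In the gut wall these antagonists are made mainly by mesenchymal cells.

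Small intestine (SI) and large intestine (LI) of EYFP embryos (EYFP males crossed to C57BL/6Nrj females) had been grafted beneath the capsule of the kidney in adult wild-type hosts and left for 4 weeks. Live cells that were negative for CD45, Ter119, BP3, CD31, EpCAM and L1CAM and positive for Itgb1 and YFP were then sorted, and 1 droplet library was sequenced from LI grafts and 1 from SI grafts. Both libraries thus carried the EYFP allele on a C57BL/6 background and came from the same host type, and neither an ungrafted gut nor an untreated control was part of the comparison. A library pooled the cells of more than 1 embryo, since cells with male and with female transcripts were present in both, and the kit (3′ or 5′) used for each library was not given in the sources used here, so graft origin, kit and run cannot be told apart. There was 1 library per graft type, so no difference below has a replicate check, and every interval given is a 95% interval for counting error only.

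The matrices held 63348069 unique molecular identifiers (UMIs, 1 per captured transcript) in 11568 barcodes for the LI grafts and 54918006 in 9631 barcodes for the SI grafts. Cells were kept if they had 500 genes or more and no more than 10% of their UMIs from mitochondrial genes, which left 9873 LI and 7910 SI cells with medians of 5288 and 5682 UMIs. The libraries shared 26 barcodes. Classes were gated on markers that exclude the 9 genes. Fibroblasts (FB) needed 5 of 7 markers, and within them PDGFRAhi FB, Fgfr2 FB, Grem1 CD81 FB and Pi16 FB needed 3 of their own. Of the LI cells 7648 and of the SI cells 5460 were of the fibroblast lineage, and 1189 and 1828 were mural, that is smooth muscle cells (SMC), pericytes or cells that passed both of these gates. Interstitial cells of Cajal (ICC), the pacemaker cells of gut muscle, numbered 331 and 49. The gates for Fgfr2 FB and, in the LI grafts, for Grem1 CD81 FB were passed narrowly, with 82.3% to 89.0% of these cells holding just the number of markers needed. Fibroblast markers made up 25900 to 65300 CPM in these fibroblast classes and 21400 and 24400 CPM in SMC, which are therefore not free of fibroblast transcripts, while the immune, epithelial and endothelial lists stayed at or under 100 CPM in each of them. The marker list of Fgfr2 FB was at 11100 CPM in LI and 4980 CPM in SI PDGFRAhi FB. In Fgfr2 FB it was at 8530 and 8540 CPM, so this list alone does not part these classes. Levels are UMIs of a gene per 1000000 UMIs of the class (CPM), summed over its cells. A share of positive cells is the share with at least 1 UMI, and it is also given after each cell was thinned to 2000 UMIs. As a reference for RNA from outside the cell, the same values are given for the 70 LI and 52 SI cells with at least 4 immune markers, which should make none of these genes.

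The 9 genes fell into 7 that were measured in fibroblasts and a pair that was almost absent. Sfrp1, Sfrp2, Sfrp4, Frzb, Wif1, Dkk2 and Dkk3 reached 10 CPM in fibroblast-lineage cells of at least 1 library. Sfrp5 had 4 UMIs among all kept LI cells and 4 among all kept SI cells. Dkk1, a direct Wnt target in many tissues, had 8 and 7. Sfrp1 was the most abundant of the 9 in both libraries, at 1005 CPM (996 to 1014) in LI and 2220 CPM (2204 to 2235) in SI fibroblasts, although levels per UMI do not allow for differences in transcript capture between genes. Dkk3 followed in the SI fibroblasts at 175 CPM and in the LI fibroblasts at 159 CPM.

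**Figure D1:**
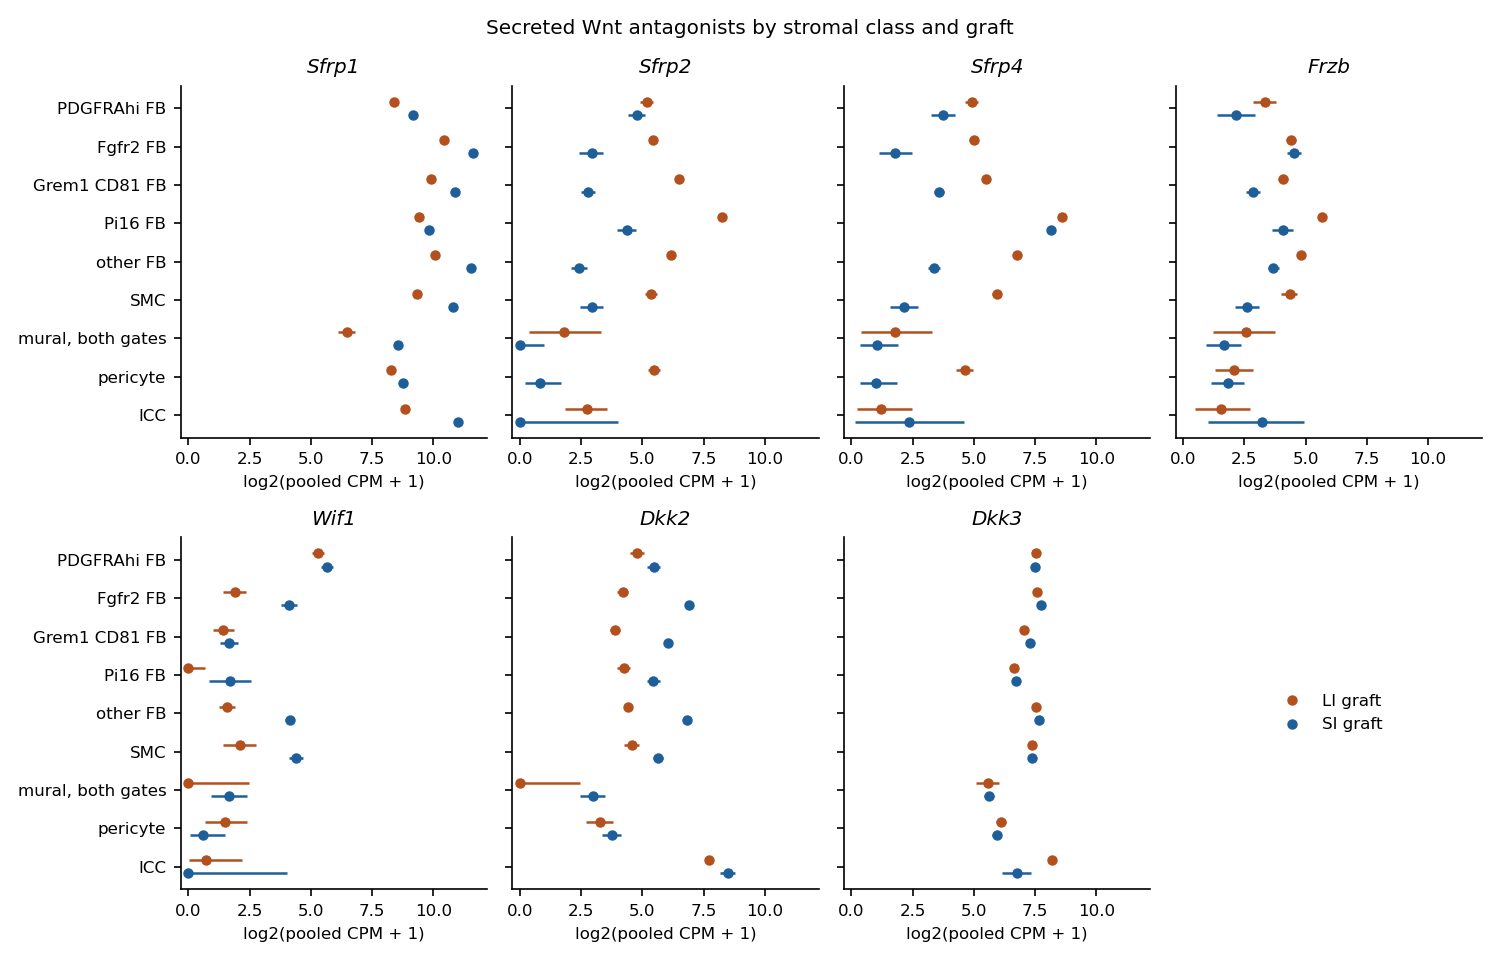
Pooled level of 7 secreted Wnt antagonists in each marker-gated class, on a log2(CPM + 1) axis, with 1 point per library (LI brown, SI blue) and lines for the 95% counting interval. Wif1 was highest in PDGFRAhi FB (38.2 CPM LI, 50 CPM SI), Sfrp4 in Pi16 FB (386 and 278 CPM), and Dkk2 in ICC (207 and 361 CPM), while Dkk3 was spread over nearly all classes.

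Setting LI against SI grafts asks whether stroma of the different gut segments differs in this gene family after growth at the same site. In fibroblast-lineage cells 3 of the 7 measured genes were at least 2-fold higher in the LI library and 3 were at least 2-fold higher in the SI library. Over all 8627 genes tested the same way, 1.91% were at least 2-fold higher in LI and 1.62% in SI, and the median log2 ratio over these genes was -0.0061, against -0.14 over the 7 members. The members were chosen with earlier results of these data known, so setting their counts beside these shares is a description. Sfrp2, Sfrp4 and Frzb were higher in LI, and Sfrp1, Wif1 and Dkk2 were higher in SI. Dkk3 lay near 0, at -0.14 on the log2 scale.

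Class by class the split persisted in part. Among ungated fibroblasts and among SMC 3 of 7 genes were at least 2-fold higher in LI and 3 in SI, against 1.95% and 1.64% of all genes in the former and 2.13% and 2.75% in the latter. The SMC count held for the gate, since with classes taken from clusters 1 of 5 measured genes, Sfrp2, was at least 2-fold higher in LI and 2 in SI, and the SMC ratios of Sfrp4 and Frzb were 0.85 and -0.48 in place of 3.77 and 1.73. In ungated fibroblasts the 3 genes higher in LI became 1 with 1 marker fewer needed and 2 in female cells. Fgfr2 FB had 2 of 7 higher in LI and 3 in SI (2.81% and 2.7% of all genes), and Grem1 CD81 FB 3 of 6 and 1 of 6 (2.17% and 1.7%). Pi16 FB had 2 of 6 and 1 of 6 (4.33% and 3.18%). These were 3 and 0 with 1 marker more or fewer needed, 1 and 0 in female cells and 2 and 2 in male cells. In the PDGFRAhi FB gate 1 of 6 was higher in LI, Sfrp4, and 0 in SI (3.05% and 3.89%). Without the cell with the most UMIs of each gene Sfrp2 joined Sfrp4, and with classes from clusters 2 of 6 were higher in LI and 3 in SI. With 1 more marker needed 0 of 6 were higher in either library. Sfrp4, with a log2 ratio of 1.17 in the gate, then had 0.07. It had 0.74 in female cells and 0.15 without an LI cluster led by Cthrc1. Pericytes had 2 of 5 higher in LI and 0 in SI (2.66% and 1.88%). They had 1 of 4 and 0 with classes from clusters, and 3 of 6 and 1 with 1 marker fewer needed. Cells of both mural gates had 0 and 1 of 2 (2.27% and 3.58%), the latter Sfrp1. With 1 marker fewer needed they had 2 and 0 of 5, and with 1 more 0 and 0 of 2.

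Sfrp2 had the widest LI excess, at 96.5 CPM (93.7 to 99.3) in LI fibroblasts and 7.88 CPM (6.98 to 8.86) in SI fibroblasts, a log2 ratio of 3.46 (3.30 to 3.62). Sfrp4 stood at 110 CPM and 29.9 CPM, a log2 ratio of 1.84 (1.75 to 1.93). Frzb stood at 24.9 CPM and 10.4 CPM, a log2 ratio of 1.18 (1.02 to 1.34). In the other direction Dkk2 was at 18.4 CPM (17.2 to 19.7) in LI and 84.9 CPM (81.9 to 88.0) in SI fibroblasts, a log2 ratio of -2.15 (-2.25 to -2.04). Sfrp1 had a log2 ratio of -1.14 (-1.16 to -1.13). Wif1 was low in both, at 4.41 CPM and 12.1 CPM, with a log2 ratio of -1.28 (-1.49 to -1.08).

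**Figure D2:**
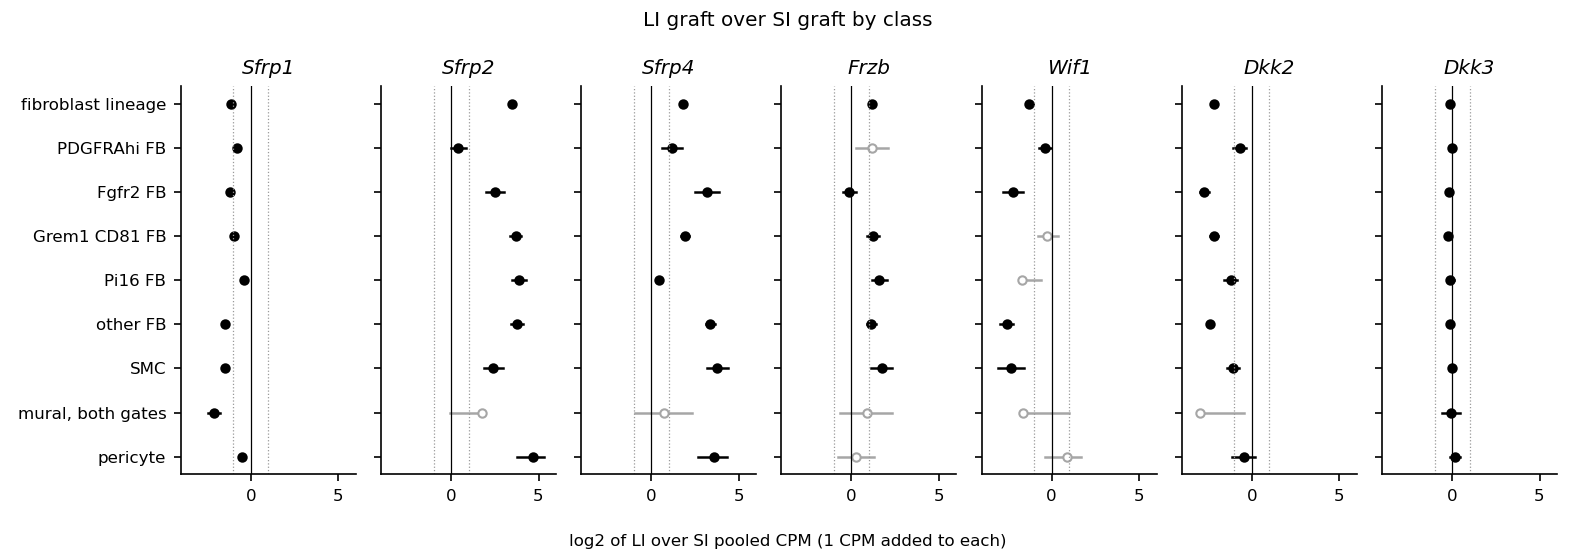
Log2 ratio of LI over SI pooled CPM (1 CPM added to each) for 7 genes in the fibroblast lineage and in 8 classes, with 95% counting intervals and dotted lines at 2-fold. Open grey points mark classes in which the gene stayed under 10 CPM in both libraries. With all cells counted, Dkk3 stayed near 0 in every class, while Sfrp2 stood at 3.88 in Pi16 FB, 3.76 in ungated fibroblasts and 3.69 in Grem1 CD81 FB. Its value of 0.40 in PDGFRAhi FB rested on 1 SI cell and was 2.78 without the top cell of each library.

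The stretch of DNA around the transcription start is shown for the genes that were at least 2-fold apart between the fibroblasts of the libraries and have an entry in the RefSeq table of promoters used here, which matched 6 of the 9 members (not Sfrp1, Sfrp4 or Dkk3). Each runs 5′ to 3′ on the gene's strand in GRCm38.p6, from 250 bases before to 50 bases after the start. Capitals mark the core of TCF/LEF sites, the sites bound by the factors that carry the Wnt signal to DNA, searched as CTTTGA or CTTTGT on both strands.
Sfrp2 (chr3:83766071-83766370, plus strand): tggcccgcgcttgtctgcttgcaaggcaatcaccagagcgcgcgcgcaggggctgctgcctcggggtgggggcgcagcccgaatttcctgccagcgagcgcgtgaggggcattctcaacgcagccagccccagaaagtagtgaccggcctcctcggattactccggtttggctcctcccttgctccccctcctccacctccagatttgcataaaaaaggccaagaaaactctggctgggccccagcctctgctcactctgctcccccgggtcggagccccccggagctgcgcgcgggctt
Frzb (chr2:80447347-80447646, minus strand): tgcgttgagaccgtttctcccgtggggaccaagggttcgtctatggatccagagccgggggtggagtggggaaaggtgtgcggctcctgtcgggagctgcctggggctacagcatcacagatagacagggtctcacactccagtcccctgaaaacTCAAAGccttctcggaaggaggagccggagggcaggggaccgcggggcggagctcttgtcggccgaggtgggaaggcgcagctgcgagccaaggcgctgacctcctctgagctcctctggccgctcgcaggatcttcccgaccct
Wif1 (chr10:121033754-121034053, plus strand): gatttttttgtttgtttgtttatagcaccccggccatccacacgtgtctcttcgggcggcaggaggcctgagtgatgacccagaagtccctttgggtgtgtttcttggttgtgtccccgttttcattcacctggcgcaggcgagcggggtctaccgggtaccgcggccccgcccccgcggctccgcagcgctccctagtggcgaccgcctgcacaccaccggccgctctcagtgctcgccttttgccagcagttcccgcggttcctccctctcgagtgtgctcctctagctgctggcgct
Dkk2 (chr3:132085042-132085341, plus strand): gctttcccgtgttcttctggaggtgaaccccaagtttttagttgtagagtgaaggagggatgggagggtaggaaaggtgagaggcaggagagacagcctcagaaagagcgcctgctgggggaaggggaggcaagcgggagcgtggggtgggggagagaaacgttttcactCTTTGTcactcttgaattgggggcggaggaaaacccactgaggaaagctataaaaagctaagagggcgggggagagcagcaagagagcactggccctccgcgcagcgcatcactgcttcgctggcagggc
Sfrp2 and Wif1 had no match in this window, whereas Frzb and Dkk2 had 1 each. At least 1 match was present in 31.2% of all 32851 promoters, so the count among these 4 is a description of the letters only. The TATA box sequence TATAAA was found at position -32 from the start of Dkk2, and on the other strand at -232 from that of Wif1, and is in 13.6% of the promoters on either strand. The 4 windows were rich in G and C, from 57.7% for Dkk2 to 66.0% for Sfrp2, against a median of 52.7% over the table. The window of Dkk1, which was almost unread in the grafts, held 3 TCF/LEF matches.

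Sfrp1 (ENSMUSG00000031548, chr8:23411502-23449632, plus strand, GRCm38), the broadest Wnt-binding member, followed nearly the same order of the 8 classes in both libraries. It was highest in Fgfr2 FB, at 1381 CPM (1356 to 1407) in LI and 3162 CPM (3108 to 3217) in SI. The remaining fibroblasts that passed no subset gate came next, at 1068 and 2951 CPM, and the intervals of the leading pair did not overlap in either library. Pi16 FB were at 676 and 905 CPM and PDGFRAhi FB at 340.0 and 578 CPM, while cells that passed both mural gates were lowest, at 88.1 and 379 CPM. SMC changed places with Pi16 FB, at 640.1 CPM in LI and 1775 CPM in SI. Detection followed the level. In Fgfr2 FB 88.6% of LI and 97.8% of SI cells were positive, and after thinning each cell to 2000 UMIs the shares were 77.2% and 95.9%. In PDGFRAhi FB they were 41.6% and 46.7%, or 27.5% and 33.4% after thinning.

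The higher Sfrp1 level in the SI library was seen in each of the 8 gated classes when all cells were counted, but its size varied. Ratios (log2, LI over SI) were -2.09 in cells of both mural gates, -1.47 in SMC and in ungated fibroblasts, -1.19 in Fgfr2 FB, -0.95 in Grem1 CD81 FB, -0.76 in PDGFRAhi FB, -0.49 in pericytes and -0.42 in Pi16 FB. In male cells alone the ratio turned to 1.48 in PDGFRAhi FB and 0.60 in pericytes, and with classes from clusters it was -3.81 in PDGFRAhi FB and 0.30 in Pi16 FB. In cells of both mural gates it was -0.59 with 1 more marker needed and -0.24 with 1 fewer. The share in the immune-gated reference was higher for this gene than for the other 8. Among the immune-gated cells 44.3% of 70 in LI and 71.2% of 52 in SI had an Sfrp1 UMI, at medians of 5648 and 6605 UMIs per cell. Fibroblasts, at 73.5% and 91.2% and medians of 5440 and 5845 UMIs, lay above these shares. The shares in the PDGFRAhi FB gate lay under them, as did the 19.1% and 22.9% of pericytes, and are not read as expression. The immune-gated share was itself higher in SI. The ratios in PDGFRAhi FB, in pericytes and in cells of both mural gates, the lowest class, are thus not read as differences in expression. In the SI cluster led by Col7a1, placed with PDGFRAhi FB by its markers, 87.6% of cells were positive. Since pericytes lay well under the immune-gated cells, that reference was not a floor common to all cells. The part of free RNA or doublets in it was not tested.

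Sfrp2 (ENSMUSG00000027996, chr3:83766321-83774316, plus strand) was concentrated in Pi16 FB of the LI library. These fibroblasts, marked by Pi16 and Dpp4, are of the kind found around vessels. They held 302 CPM (289 to 317), against 88.0 CPM in Grem1 CD81 FB, 71.0 CPM in ungated fibroblasts and 35.2 to 41.7 CPM in PDGFRAhi FB and Fgfr2 FB. Of the Pi16 FB 34.9% were positive, against 8.57% of immune-gated cells, or 20.04% against 4.84% after thinning. They carried 9.17 UMIs per positive cell, up to 108 in 1 cell, so that few cells held most of the transcript. Over all LI fibroblasts only 11.7% were positive, so the tenth of cells with the most Sfrp2 UMIs had to hold most of them. It held 97.2%. In the SI library Sfrp2 was rare among fibroblasts, with 278 UMIs in 75 of 5460 fibroblasts. Its nominal peak there, 26.4 CPM in PDGFRAhi FB, came from 68 UMIs in 8 of 383 cells, and 1 cell held 60 of the 68. Without that cell's UMIs the value was 3.1 CPM, and Pi16 FB became the highest of the 8 SI classes at 13.7 CPM without its own top cell. Mesothelial cells, the outer lining of the gut, were few, but 14 of 30 LI cells and 5 of 24 SI cells were positive, at 375 CPM (294 to 473) and 41.3 CPM (21.4 to 72.2). The immune-gated SI cells gave 57.0 CPM, all from 26 UMIs in 1 cell. In the LI library they gave 53.5 CPM from 28 UMIs in 6 cells, and LI pericytes and SMC, at 43.8 and 39.9 CPM, as well as the PDGFRAhi FB and Fgfr2 FB given above lay under that. The Sfrp2 levels of these 4 LI classes are thus not distinct from the reference. The log2 ratio in pericytes, 4.67 with 3 SI UMIs, was 1.68 with classes from clusters.

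Sfrp4 (ENSMUSG00000021319, chr13:19623104-19632994, plus strand), which also binds Wnt proteins, marked the same Pi16 FB in both libraries. It stood at 386 CPM (371 to 402) in LI and 278 CPM (259 to 299) in SI Pi16 FB. Among the classes compared the next was ungated fibroblasts in LI, at 106 CPM, and PDGFRAhi FB in SI, at 12.4 CPM. Without the top cell of each class the latter had 4.26 CPM, under the 10.2 CPM of SI Grem1 CD81 FB. Immune-gated cells had 63.0 CPM in LI, from 7 of 70 cells, and 6.58 CPM in SI, from 3 UMIs in 1 of 52. All cells gated as non-stromal together had 89.1 and 47.8 CPM. In LI the compared classes other than Pi16 FB and ungated fibroblasts lay under the immune-gated value, at 59.5 CPM or less. In SI those other than Pi16 FB lay under the non-stromal value. Fibroblasts that met 2 subset gates equally were not compared. They held 4.14% of the LI Sfrp4 UMIs and 2.66% of all LI UMIs. Of all Sfrp4 UMIs in kept cells 40.5% in LI and 64.4% in SI lay in Pi16 FB, which held 9.93% and 5.24% of all UMIs. Within the Pi16 FB gate the log2 ratio was 0.47 (0.35 to 0.59), and it depended on the cells taken. It was -0.10 in female cells, -0.99 in male cells, 2.62 with classes from clusters and 1.64 with 1 marker fewer needed. The gated ratios of other fibroblasts were wider, at 3.38 in ungated fibroblasts, 3.21 in Fgfr2 FB and 1.93 in Grem1 CD81 FB. They too depended on the cells taken. In ungated fibroblasts the value was -0.56 with 1 marker fewer needed, which moved cells into the subsets. With classes from clusters Fgfr2 FB had 1.70 and Grem1 CD81 FB 0.67, both narrower than the Pi16 FB of that setting. Without an LI cluster led by Cthrc1 the 3 values were 1.18, 1.98 and 1.17, and male Grem1 CD81 FB had 0.20. As with Sfrp2, few cells carried it, and 1 SI cell in the Pi16 gate held 207 of the 754 UMIs there.

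Frzb (ENSMUSG00000027004, chr2:80411970-80447625, minus strand) was lower and less sharply placed. In the LI library it was highest in Pi16 FB, at 49.99 CPM (44.5 to 56.0), above 27.1 CPM in ungated fibroblasts. In the SI library Fgfr2 FB led at 22.0 CPM (17.7 to 27.1), and the interval overlapped that of Pi16 FB at 15.9 CPM (11.5 to 21.4). Immune-gated cells had 21.0 CPM in LI, from 11 UMIs in 4 cells, and 8.77 CPM in SI, from 4 UMIs in 3 cells. All non-stromal cells had 42.9 CPM (32.9 to 54.9) in LI and 5.49 CPM in SI. Of the compared LI classes only Pi16 FB lay above that LI value, with overlapping intervals. The gated Fgfr2 FB had a log2 ratio of -0.11 (-0.48 to 0.26), which was -1.82 with classes from clusters and -1.68 with 1 more marker needed, against gated values of 1.60 in Pi16 FB and 1.21 in Grem1 CD81 FB. The last was -0.0819 when 1 more marker was needed. In female cells the ratios of Fgfr2 FB, Pi16 FB and Grem1 CD81 FB were -0.06 (-0.56 to 0.47), 0.40 (-0.08 to 0.90) and 0.27 (-0.23 to 0.77), with intervals that include 0, whereas male Pi16 FB and Grem1 CD81 FB had 4.54 and 2.40. As a mean over single cells, each scaled to its own depth, the ratio of all fibroblasts was 0.54, under 2-fold. Shares of positive cells were 14.3% in LI Pi16 FB and 10.2% in SI Fgfr2 FB, beside 5.71% and 5.77% among immune-gated cells. After thinning they were 5.85% and 3.96%, beside 1.61% and 2.13% among immune-gated cells, each of the latter from 1 cell.

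Clustering each library on its own showed where the LI excess of these 3 genes lay. The members were left out of the variable genes that built the clusters, and the cluster levels are a description of 1 library each. A cluster of 425 LI cells, led by Cthrc1, Prg4, Ptx3 and Mmp3, had the highest level of each: 419 CPM of Sfrp2, 716 CPM of Sfrp4 and 98.6 CPM of Frzb. Its cells had a median of 14430 UMIs, far above the library median, and 38.4% of them were in the Pi16 gate. Both portions of the cluster carried the genes, with Sfrp4 at 642 CPM in its 163 Pi16 FB and 776 CPM in its other 262 cells. When the cluster was left out of the LI fibroblasts, the log2 ratio over SI fell to 0.21 for Sfrp4 and 0.58 for Frzb, both under 2-fold, while Sfrp2 kept 2.64. The cluster was picked because the genes were high in it, so its removal had to lower the ratios, and the extent is what is reported. Sfrp2 had a further source in the LI library, at 147 CPM in 1464 cells led by Myoc and Lpl. Frzb had a second LI source, at 53.9 CPM in 604 cells led by Ctla2a, Fgfbp1 and Tac2.

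**Figure D3:**
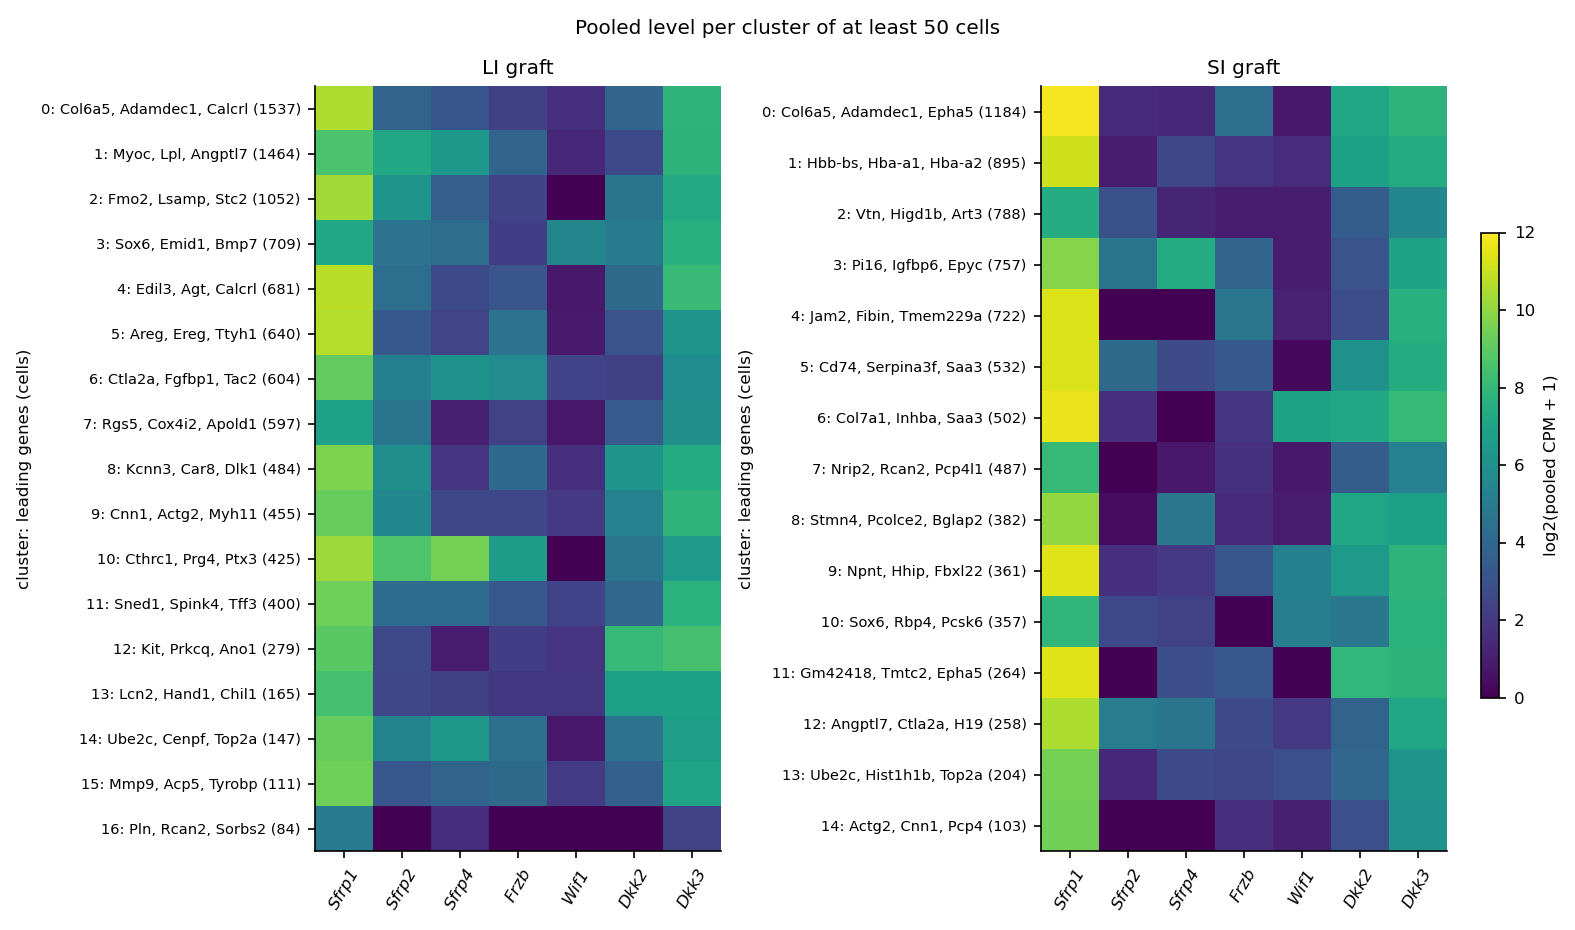
Pooled level of 7 genes in every cluster of at least 50 cells of each library on a log2(CPM + 1) colour scale, with the cluster's leading genes and number of cells. The LI cluster led by Cthrc1 stood out for Sfrp2, Sfrp4 and Frzb (419, 716 and 98.6 CPM), and the SI cluster led by Col7a1 stood out for Wif1 (123 CPM).

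Wif1 (ENSMUSG00000020218, chr10:121033960-121100650, plus strand), the Wnt inhibitory factor, was sparse even where it was highest. PDGFRAhi FB, which lie under the epithelium, had 38.2 CPM (32.1 to 45.1) in LI and 50 CPM (41.7 to 59.4) in SI, from 92 of 604 (15.2%) and 66 of 383 (17.2%) positive cells. Thinning left shares of 7.10% and 8.09%. None of the 70 and 52 immune-gated cells had a Wif1 UMI, which allows shares with a UMI of up to 4.29% and 5.77% among them. None of 573 LI Pi16 FB had one either, which allows a share with a UMI of up to 0.524%, and neither limit applies to cells that express the gene without a captured UMI. In LI 53.7% of the Wif1 UMIs lay in PDGFRAhi FB, and each of the other 7 classes compared had at most 3.28 CPM. LI cells that passed no gate had 14.4 CPM, from 15 UMIs, and those of mixed gates 10.8 CPM, from 10 UMIs. In SI Wif1 was wider, with 20.3 CPM in SMC, 16.6 CPM in ungated fibroblasts and 16.4 CPM in Fgfr2 FB. Only 23.0% of its UMIs there lay in PDGFRAhi FB. The log2 ratio in the PDGFRAhi FB gate was -0.38 (-0.73 to -0.03), but it was -0.81 in female cells and -1.02 with classes from clusters. Other gated classes had -2.58 in ungated fibroblasts, -2.32 in SMC and -2.23 in Fgfr2 FB. These depended on the cells taken. Male SMC had 2.68 (0.91 to 4.13), from 7 LI and 3 SI UMIs. With classes from clusters other fibroblasts had 0.63 and Fgfr2 FB 0.65, at under 10 CPM in both libraries.

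Most of the wider SI pattern lay in 1 cluster. A group of 502 SI cells, led by Col7a1, Inhba, Saa3 and Bmp7, held 64.9% of all Wif1 UMIs at 123 CPM (111 to 137), with 32.3% of cells positive. Of these cells 56.8% were in the gate of ungated fibroblasts and 12.5% in that of PDGFRAhi FB, although the markers of the cluster as a whole put it with PDGFRAhi FB. The values of PDGFRAhi FB given for classes from clusters include it. With these classes Wif1 was under 10 CPM in both libraries in Fgfr2 FB and other fibroblasts. These cells differed from the Wif1 clusters led by Sox6 in Sfrp1 and Dkk2. They had 3259 CPM of Sfrp1 and 142 CPM of Dkk2, whereas the 357 SI cells led by Sox6 and Rbp4, 72.0% of them in the PDGFRAhi FB gate, had 34.1 CPM of Wif1 with 237 CPM of Sfrp1 and 25.7 CPM of Dkk2. The 709 LI cells led by Sox6 and Emid1 resembled the latter, at 42.9 CPM of Wif1, 147 CPM of Sfrp1 and 29.7 CPM of Dkk2. A further SI source, 361 cells led by Npnt and Hhip, had 35.0 CPM of Wif1 with 2730 CPM of Sfrp1. The main Wif1 cluster of LI was thus low in Sfrp1, and those of SI were low or high in it. No LI cluster other than the one led by Sox6 passed 4.32 CPM of Wif1.

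Dkk2 (ENSMUSG00000028031, chr3:132085292-132180304, plus strand), the Lrp-binding member, was most abundant in ICC. These had 207 CPM (185 to 231) in LI, with 40.8% of 331 cells positive, and 361 CPM (289 to 445) in SI, with 59.2% of 49 cells positive. In the LI library none of the 8 other classes passed 26.3 CPM, and ICC, with 2.57% of all UMIs, held 22.3% of the Dkk2 UMIs. In the SI library Fgfr2 FB followed at 120 CPM (109 to 131) and ungated fibroblasts at 111 CPM (105 to 117), a pair whose intervals overlapped. Among the gated LI fibroblasts the order was different and the range narrower, from 26.3 CPM in PDGFRAhi FB to 13.8 CPM in Grem1 CD81 FB. The SI excess was widest in Fgfr2 FB (-2.72), ungated fibroblasts (-2.39) and Grem1 CD81 FB (-2.15), and in the gated classes it was narrowest among fibroblasts in PDGFRAhi FB (-0.70). With classes from clusters PDGFRAhi FB had -1.66 and Pi16 FB -1.09. Pericytes had a log2 ratio of -0.47 with an interval from -1.16 to 0.19. Fibroblast clusters of both libraries differed widely in this gene. In SI the 1184 cells led by Col6a5 and Adamdec1 had 145 CPM, and the 722 cells led by Jam2, Fibin and Tmem229a had 6.15 CPM, although their Sfrp1 levels were 3655 and 2634 CPM. In LI the 604 cells led by Ctla2a had 3.87 CPM and the 484 cells led by Kcnn3, Car8 and Dlk1 had 76.7 CPM (65.8 to 88.8). The latter share Jam2, Fibin and Tmem229a as leading genes with the SI cluster at 6.15 CPM (3.81 to 9.40), so for this pair of clusters Dkk2 was higher in LI, against the direction over all fibroblasts. Immune-gated cells had 2.86% positive in LI and 15.4% in SI, against 6.42% and 25.5% of fibroblasts. Thinning lowered the fibroblast shares to 2.97% and 13.1%. The immune-gated shares were then 0% of 62 LI cells and 8.51% of 47 SI cells.

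Dkk3 (ENSMUSG00000030772, chr7:112116017-112159057, minus strand) was the evenest of the 7. Among fibroblast classes it ran from 97.3 CPM in Pi16 FB to 188 CPM in Fgfr2 FB in LI and from 105 to 210.5 CPM in the same classes in SI. SMC were at 165 and 163 CPM, and pericytes at 67.6 and 60.5 CPM. With all cells counted, all 8 class ratios of LI over SI lay between -0.25 and 0.16 on the log2 scale. ICC were the exception, with 293 CPM (267 to 321) in LI and 108 CPM (70.4 to 158) in SI, the latter from 26 UMIs. In male cells alone the ratios were -1.83 in ungated fibroblasts, -1.505 in Grem1 CD81 FB and -1.42 in PDGFRAhi FB. Male Fgfr2 FB had -1.225 and male Pi16 FB -0.62. Positive cells carried few transcripts, 1.81 UMIs per positive fibroblast in LI and 1.88 in SI, so Dkk3 was widespread and shallow where Sfrp4, at 7.63 and 5.01 UMIs per positive cell, was rare and deep. Immune-gated cells were positive in 34.3% (LI) and 48.1% (SI), against 55.8% and 60.1% of fibroblasts.

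Sfrp5 (ENSMUSG00000018822, chr19:42197971-42202252, minus strand) and Dkk1 (ENSMUSG00000024868, chr19:30545863-30549665, minus strand) were not measurable at this depth. Sfrp5 had 2 UMIs in 7648 LI fibroblasts and 0 in 5460 SI fibroblasts, where 3 counts, the limit a count of 0 allows, correspond to 0.0850 CPM. Dkk1 had 4 UMIs in fibroblasts of each library. Pericytes had 4 Dkk1 UMIs in LI and 3 in SI, or 1.45 and 0.76 CPM, the highest value of any class but too few for a comparison.

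Of the 7 measured genes 4 had the same highest class in both libraries among the 8 classes compared: Sfrp1 and Dkk3 in Fgfr2 FB, Sfrp4 in Pi16 FB and Wif1 in PDGFRAhi FB. The number was 3 with classes from clusters or in male cells, 5 without the top cell of each class and 6 in female cells. For Dkk3 the lead over ungated fibroblasts lay within the counting intervals. Against all other fibroblasts of the library, PDGFRAhi FB had 1 gene at least 2-fold higher and 4 at least 2-fold lower in LI, where 4.72% and 4.29% of all genes were. In SI they had 2 higher, Wif1 and Sfrp2, and 4 lower, against 7.04% and 5.16%, and Sfrp2 was higher through the 1 cell named above. Those lower in both were Sfrp1, Sfrp4 and Frzb. These counts hold for the gate. Classes from clusters place the SI cluster led by Col7a1, high in Sfrp1 and Dkk2, with PDGFRAhi FB, and counts for those classes are not given. Pi16 FB had 3 genes higher and 0 lower of 6 in LI (2.88% and 4.75% of all genes), and 2 higher and 3 lower of 7 in SI (2.63% and 5.31%). Sfrp2 and Sfrp4 were the pair higher in both. Mural cells together had 0 genes at least 2-fold higher than fibroblasts in either library, where 5.67% of all genes in LI and 7.11% in SI were, and 4 of 6 lower in each, against 3.15% and 5.56%. Sfrp1, Sfrp4 and Frzb were lower in both, with Sfrp2 in LI and Dkk2 in SI.

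Fibroblasts mostly held 1 or 2 of these transcripts at a time. After thinning to 2000 UMIs, 49.7% of LI and 51.2% of SI fibroblasts were positive for 1 member and 22.7% and 33.2% for 2, and 23.8% and 10.3% had none. Cells of both mural gates had none in 88.9% and 81.7%. In LI fibroblasts Sfrp2 and Sfrp4 were found together in 89 of 7218 thinned cells, 4.01 times the 22.2 given by the product of their shares, and Sfrp4 and Frzb in 31 cells, 3.28 times the product. Sfrp2 and Frzb, by contrast, met in 8 cells against 12.5 from the product. Within LI Pi16 FB they met in 1 cell against 6.61. Within the LI cluster led by Cthrc1, with all UMIs counted, they met in 50 of 425 cells against 72.4, and the median depths of the positive cells were 15290 and 15220 UMIs. In the same cluster Sfrp2 and Sfrp4 met in 183 cells against 172, 1.07 times the product, and Sfrp4 and Frzb in 96 against 85.8, 1.12 times. These ratios cannot be set against those of the thinned cells, since all UMIs were counted and so many cells were positive that the ratio had little room to rise. Sfrp1 and Wif1 met in 14 LI cells against 38.7 from the product and in 69 SI cells against 85.0. These ratios are descriptions over cells of 1 library.

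Across the 16 class means (8 classes in each of 2 libraries), the Pearson correlation of log2(CPM + 1) was 0.86 between Sfrp2 and Sfrp4 and 0.88 between Sfrp1 and Dkk2, whereas Sfrp4 and Wif1 had -0.20. Sfrp2 and Frzb had 0.70 and Sfrp1 and Wif1 0.38, although each pair met in fewer single LI cells than the product gives. Among 10375 genes with at least 10 CPM in a class, the nearest to Sfrp1 were Atrnl1 (0.94), Ifi27l2a (0.94) and Golga7 (0.94). Those nearest to Sfrp4 were Pi16 (0.92), which is itself a gate marker, Wnt2 (0.92), a canonical Wnt ligand, and Cyb561 (0.92). Sfrp2 was nearest to Cpne8, Dio3 and Ldlrad4 (0.91 to 0.90), Wif1 to Samd14, Twsg1 and Apopt1 (0.93 to 0.91), and Dkk2 to Amigo1, Hsd11b1 and Lysmd2 (0.93 to 0.91). Dkk3 was nearest to Ghr (0.97), 2810433D01Rik (0.96) and Mdk (0.95), and Frzb to Ibtk (0.91), Rpl26 (0.90) and Rps29 (0.90). The points share libraries and depth, so these values are a description.

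Cells could be split by sex, which in these pooled grafts separates at least some of the embryos. Male cells, with a UMI of Ddx3y, Eif2s3y, Kdm5d or Uty and none of Xist, made up 9.17% of LI and 22.9% of SI fibroblasts, and female cells 81.7% and 58.7%. Sfrp1, Sfrp2 and Dkk2 kept the direction of their library difference in both, with log2 ratios of -1.31, 3.60 and -2.27 in female and -0.92, 2.95 and -2.74 in male cells. Dkk3, level in female cells at 187 CPM (LI) and 193 CPM (SI), was at 54.5 CPM in LI male and 148 CPM in SI male cells, a log2 ratio of -1.43 (-1.60 to -1.27). Frzb had 0.68 in female and 2.47 in male cells. Sfrp4 had 1.73 in female and 0.41 in male cells, and Wif1 -1.77 and -0.24, the male value of Wif1 resting on 7 LI and 15 SI UMIs. The ratio of Dkk3 near 0 over all cells was thus not shared by the male cells. Male LI cells were not spread over the clusters. They made up 50% and 58.6% of the clusters led by Areg and by Ctla2a and 58.2% of that led by Lcn2, but 0.471% of the cluster led by Cthrc1 and 0.0651% of that led by Col6a5. In the SI library they made up 0.797% of the cluster led by Col7a1 that carried most Wif1. Sex, embryo, graft and cell state cannot be told apart here.

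**Figure D4:**
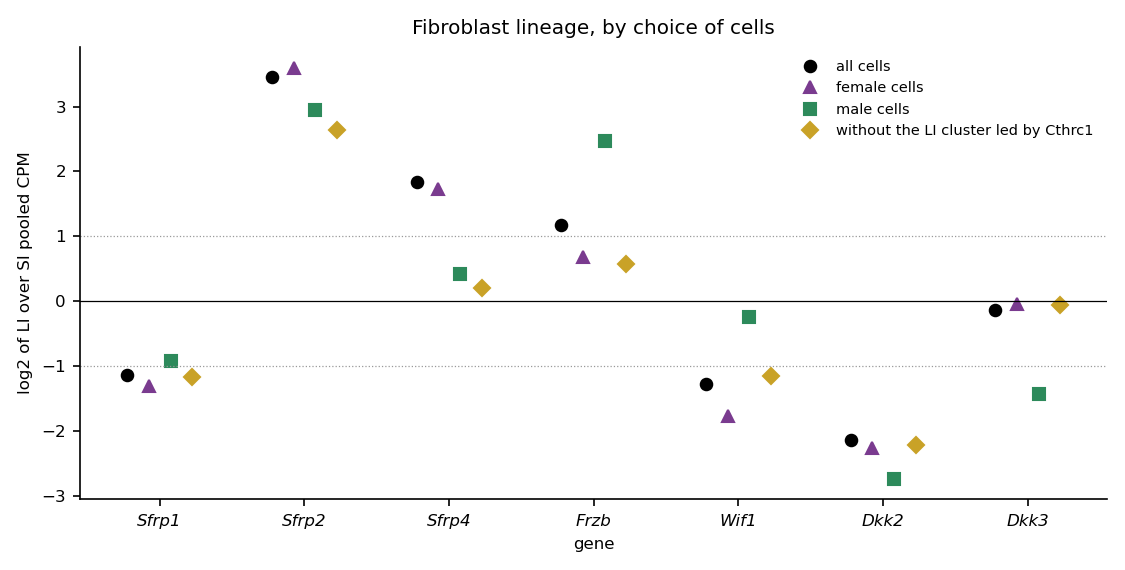
Log2 ratio of LI over SI pooled CPM in fibroblast-lineage cells for 7 genes, computed on all cells, female cells, male cells and without the LI cluster led by Cthrc1; dotted lines mark 2-fold. Sfrp2 and Dkk2 stayed past 2-fold in all 4, whereas Sfrp4 dropped to 0.41 in male cells and 0.21 without the cluster, and Dkk3 moved from -0.05 in female to -1.43 in male cells.

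MHC class II transcripts, which fibroblasts raise under interferon, moved with some of these genes. Fibroblasts with at least 3 of the 4 transcripts H2-Aa, H2-Ab1, H2-Eb1 and Cd74 (702 LI, 640 SI) were set against those with none (5418 and 3635). Frzb was at 56.4 against 17.3 CPM in LI, a log2 ratio of 1.65 (1.46 to 1.83), and at 11.4 against 10.9 CPM in SI, a ratio of 0.05 (-0.33 to 0.43). Dkk3 was at 81.9 against 181 CPM in LI (-1.14) and at 161 against 182 CPM in SI (-0.17). Wif1 was at 3.32 against 15.9 CPM in SI (-1.97). The 3 LI clusters with many male cells also held many MHC class II positive cells, 69.7% of the cluster led by Ctla2a, 24.7% of that led by Areg and 35.2% of that led by Lcn2, against 2.4% of the cluster led by Sox6. The part of either in the library differences was not tested.

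A smaller share of the other Wnt pathway genes was apart between the libraries. The lists were chosen with earlier results of these data known, so this comparison is a description. Of 58 other pathway genes 22 reached 10 CPM in fibroblasts, and 2 of these were at least 2-fold higher in LI and 1 in SI, beside the 3 and 3 of 7 among the antagonists and the 1.91% and 1.62% of all genes. Those higher in LI were the ligands Wnt2 (16.5 against 2.07 CPM, log2 ratio 2.51) and Wnt4 (155 against 75.3 CPM, 1.04). The R-spondin gene Rspo2, whose product amplifies Wnt responses, was higher in SI (3.58 against 27.3 CPM, -2.63). None of the 11 measured receptors and co-receptors passed 2-fold. Lrp6, the co-receptor bound by Dkk proteins, was at 116 and 89.9 CPM, and Lrp5 at 8.19 and 11.2 CPM. Kremen1, a Dkk receptor, was at 18.3 and 16.2 CPM. The feedback targets Axin2 and Nkd1, often read as a gauge of Wnt response, were at 10.4 and 18.8 CPM in LI and 14.5 and 25.9 CPM in SI, each with a log2 ratio of -0.44. None of 7 further antagonists, among them Notum at 1.07 and 2.78 CPM, reached 10 CPM.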

How the data were processed

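Droplet libraries of sorted stromal cells from LI and SI grafts were analysed, 1 per graft type. The authors deposited raw UMI counts per gene and cell barcode, not normalised, for cells already called. The submitters' processing notes name Cell Ranger 3.1.0, Seurat 3 and the build mm10, and the kit of each library was not given in the sources used here. No comparison columns were part of the files.

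Counts were read in Python 3.11.15 with scipy 1.17.1 and kept for cells with 500 genes or more and up to 10% mitochondrial UMIs. Cells were gated by how many markers of a list had a UMI. Gate thresholds were set on the markers after the data were seen, without the 9 genes, and the genes and lists were chosen with earlier results of these data known. All 9 genes were to be named, with the 3 nearest genes to each by correlation and, of the other Wnt pathway genes, up to 5 in each direction with at least 10 CPM and past 2-fold. Lrp5, Lrp6, Kremen1, Axin2, Nkd1 and Notum fall outside that rule and were chosen after their values were seen. Levels carry exact Poisson intervals and shares Clopper-Pearson intervals. Ratios are log2 with 1 CPM added and an interval from an exact binomial split, and a gene counted as apart past 2-fold with at least 10 CPM in 1 library. With 1 library per group there was no test, and intervals cover counting error only. A count of 0 was given a limit of 3 counts. PCR copies are collapsed by UMIs. Clusters were made per library in Seurat 5.3.0 (R 4.3.3, 2000 variable genes less any of the 9 genes, 30 components, resolution 0.8). Doublets were not removed. Scrublet (scanpy 1.11.5) called 0 LI and 1 SI cells, which was taken as a failed call, so its highest scores were removed only as an alternative. The other alternatives were looser and stricter cell filters, classes from clusters, gates with 1 marker more or fewer, a mean over cells, a pseudocount of 5 CPM, a minimum of 50 CPM, TMM scaling (edgeR 4.0.16) and female cells only. Male cells only, leaving out the LI cluster led by Cthrc1 and leaving out the cell with most UMIs of each gene were added after seeing the data. The ratio and interval code was tested on simulated data.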

Additional observations from a re-analysis of the deposited data

Results flagged for a closer look

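For 4 pairs of values the libraries lay on opposite sides of 0, which flagged them, and the difference between the libraries was not tested. Sfrp2 in PDGFRAhi FB against all other fibroblasts had a log2 ratio of -1.502 in LI and 1.88 in SI, and the latter rested on 1 cell that held 60 of 68 UMIs. Dkk2 in PDGFRAhi FB against other fibroblasts had 0.54 in LI and -1.01 in SI. Frzb in Fgfr2 FB against other fibroblasts had -0.33 in LI and 1.22 in SI. Sfrp2 in fibroblasts with MHC class II transcripts against those without had -0.27 in LI and 1.38 in SI.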

How the results depend on the processing

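No paired analysis was possible because each graft type had 1 library, and no library could be left out. Over the 10 planned settings the fibroblast ratio of LI over SI ran from 2.98 to 3.95 for Sfrp2, 1.70 to 1.86 for Sfrp4, 0.54 to 1.28 for Frzb, -1.31 to -1.13 for Sfrp1, -1.77 to -0.87 for Wif1, -2.33 to -1.94 for Dkk2 and -0.17 to -0.01 for Dkk3, and Frzb passed 2-fold in 7 and Wif1 in 9 of them. The number of genes at least 2-fold higher in LI, 3 as reported, was 1 without the LI cluster led by Cthrc1, a setting added after seeing the data. Among class ratios that were 2-fold or more as reported, directions turned 12 times, and in 10 of these both libraries were then under 10 CPM. With classes of clusters these were Wif1 in Fgfr2 FB (0.65) and other fibroblasts (0.63), Frzb in SMC (-0.48) and Sfrp4 in pericytes (-0.21). With 1 more marker needed they were Frzb in Grem1 CD81 FB (-0.0819) and Wif1 in Pi16 FB (0.26), and with 1 fewer Sfrp4 in other fibroblasts (-0.56). In male cells alone, also added later, they were Frzb in PDGFRAhi FB (-1.84, 0 LI and 2 SI UMIs), Wif1 in other fibroblasts (1.04, 2 and 0 UMIs) and SMC (2.68, 7 and 3), and Sfrp4 in SMC (-0.17, 2 and 9) and pericytes (-0.86, 0 and 1), and the counting intervals of all but Wif1 in SMC include 0. Among ratios under 2-fold as reported, almost unread genes included, signs turned 47 times in 21 ratios. Male cells are fewer, and the cause was not tested. TMM scaling moved no class by more than 0.12. Rare transcripts such as Sfrp5 and Dkk1 lie at the limit of this depth, and no setting supplies a second library.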
